A study of Mus musculus with 6 samples.

Results

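The Na,K-ATPase is the pump that moves Na+ out of cells and K+ into them. Its genes followed here were the 3 β subunit genes Atp1b1, Atp1b2 and Atp1b3 and the 4 FXYD genes Fxyd1, Fxyd2, Fxyd5 and Fxyd6. Their probe sets were found by gene symbol. Every probe set to which the platform annotation gave 1 of these 7 symbols was taken, which made 15 probe sets of the 45037 on the array that measure mouse transcripts, and 7 genes of 18193. The β subunits had 8 probe sets and the FXYD genes 7. Signals came from stria vascularis, the tissue in the wall of the cochlear duct that supplies endolymph with K+, microdissected from 129S6 mice of about 5 months. Slc26a4+/+ mice have both alleles of the gene of pendrin, an anion exchanger, and Slc26a4-/- mice have no functional allele. Each genotype was measured on 3 Affymetrix mouse gene chips, each hybridised with pooled RNA of 2 animals after 2 rounds of amplification, which makes 6 animals per genotype if no animal served 2 arrays. No treatment is named, and the mice were not perfused, so that blood remained in the capillaries.

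The catalytic α subunit of the pump binds the ions and splits ATP. The β subunit is a glycoprotein that the α subunit needs to fold and to reach the plasma membrane. FXYD proteins, named after a conserved stretch of amino acids, are small membrane proteins that bind to the α/β complex and set its affinity for Na+ and K+ or its turnover in a given tissue. In stria vascularis the pump sits in the basolateral membrane of marginal cells. There it works beside the Na-K-Cl cotransporter Slc12a2, with which it takes up the K+ that these cells then secrete through apical K+ channels. Of the α subunit genes Atp1a4 was measured, and the others were not analysed here. Atp1a4 is known for its place in sperm, and it was below background on all arrays of both genotypes.

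Signals are values on a linear scale that the scanner software GCOS makes from the probes of a probe set. As a measure of background, 44 probe sets of olfactory receptor genes were read on each array, and their 95th percentile was 187 to 319. The mean signal was 662 to 719.6 on all arrays. Markers of marginal, intermediate and basal cells of stria vascularis were all measured, and 0 of these 20 genes lay below background on all arrays. The intermediate cell marker Tyrp1 was below background on all Slc26a4+/+ arrays, and the basal cell marker Cldn10 on all Slc26a4-/- arrays. Slc26a4 itself ranged from 793 to 1354 in Slc26a4+/+ and from 520.2 to 717 in Slc26a4-/- (log2 fold change -0.85, limma, adjusted p = 0.119). Whether its probe set lies in the deleted stretch is not known from the sources used here, and the labels of the genotypes are thus not tested by it. Gapdh has control probe sets at both ends of its transcript, and the 3′ signal over the 5′ signal, which is higher in degraded RNA, was 2.25, 7.19 and 10.5 on Slc26a4+/+ replicates 1, 2 and 3 and 3.34 to 3.8 on the Slc26a4-/- arrays. Xist, the RNA that coats the inactive X chromosome, lay at 771 to 3358 in Slc26a4+/+ and at 5529.6 to 5863 in Slc26a4-/-. The Y-linked gene Eif2s3y lay at 639.9 to 1541 in Slc26a4+/+ and at 3.1 to 3.6 in Slc26a4-/-. The pools therefore differed in sex, and sex and genotype cannot be told apart.

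Of the 15 probe sets, 1 was higher and 0 were lower in Slc26a4-/- at an adjusted p under 0.05 (limma on log2 signals, two-sided, with the Benjamini-Hochberg adjustment made over the 45037 probe sets). The probe set that rose was that of Fxyd5. Among all probe sets of the array, 1.19% were higher and 0.540% were lower by the same test. Without adjustment, at p under 0.05, 1 member probe set was higher and 4 were lower, against 6.15% higher and 5.77% lower of all probe sets. By the methods' paired t-test without adjustment, 2 were higher, Fxyd5 and a Fxyd2 probe set that was below background on all arrays, and 1 Fxyd2 probe set was lower, against 3.96% and 4.88% of all probe sets, and 0 passed after adjustment. The study's methods name that paired test for differences in general, while for the arrays they describe averaged signals and ratios. Here arrays were paired by replicate number, although arrays of the same number correlated at only 0.0939, 0.0267 and 0.0287. The pairing was therefore arbitrary, and no conclusion is drawn from the counts of that test. All Slc26a4-/- arrays lay above all Slc26a4+/+ arrays in 3 of the 15 and below them in 4, where 8.46% and 9.40% of all probe sets did so. Probe sets of 1 gene are not separate evidence. With only the brightest probe set of each gene, 2 of the 7 genes lay above and 1 below, where 2040 and 1770 of 18193 genes did. At an unadjusted limma p under 0.05, 1 of the 7 genes was higher and 1 lower, where 1542 and 1168 of 18193 genes were. The median log2 fold change, Slc26a4-/- over Slc26a4+/+, was -0.28 over the 15 probe sets and -0.06 over all probe sets. By the brightest probe set of each gene it was -0.06 over the 7 genes and -0.03 over all genes. Of the 15, 14 were above background on at least 2 arrays of a genotype. The remaining one belongs to Fxyd2. These were bulk samples, in which fewer cells of a type and less RNA per cell cannot be told apart.

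**Figure D1:**
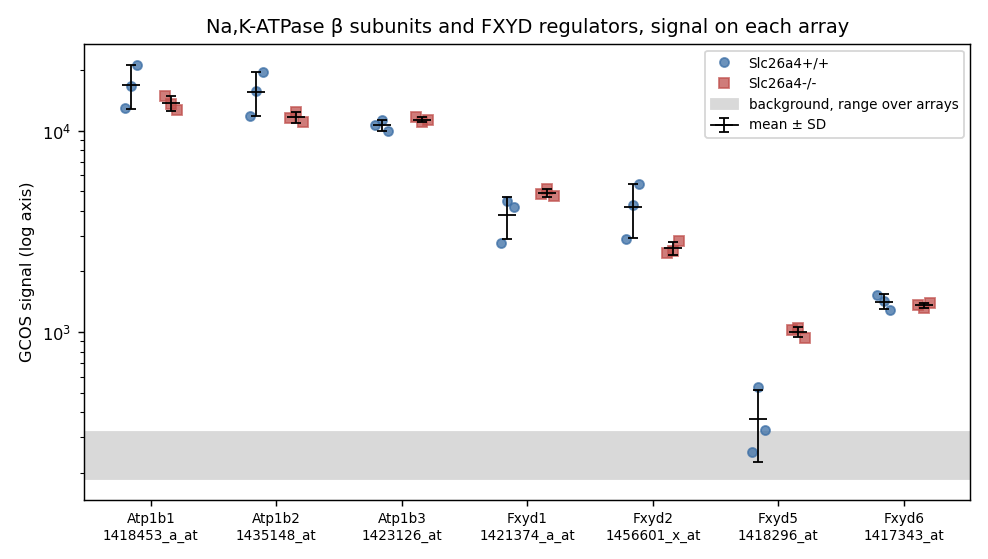
GCOS signal (log axis) of the brightest probe set of each of the 7 genes on every array, with Slc26a4+/+ in blue circles, Slc26a4-/- in red squares, black bars for the mean ± SD of 3 arrays and a grey band for the range of background over the arrays. In Slc26a4+/+ the 3 points of Fxyd5 lie inside, at the edge of and above the band (255, 326 and 535), and in Slc26a4-/- they lie at 939 to 1052, and levels of different probe sets cannot be set against each other.

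For Fxyd5, the member that rose, and for Atp1b1 and Atp1b3, which showed no difference past the test, the bases just upstream of the annotated start are given to show what lies in front of these genes. They are RefSeq sequences of the assembly GRCm38.p6. All 3 genes are on the minus strand, and each sequence runs 5′ to 3′ and ends at the base before the start. Of the 7 members 5 had an entry in the promoter table, and Fxyd2 and Atp1b2 had none. Fxyd1 and Fxyd6 had entries too and are not shown, so the sequences set beside Fxyd5 are both of β subunit genes. Atp1b3 had 2 entries, and the one at the outer end of the gene was taken. Capitals mark motifs, which were searched on both strands and do not overlap. The letters of the GC box were GGGCGG. Those of the TATA box were TATAAA. The CCAAT box is spelled by its name. The Fxyd5 stretch (chr7:31042332-31042514, 183 bases) stops where the neighbouring gene Fxyd7 is annotated and lies inside the long noncoding RNA gene Gm38984. That of Atp1b1 is chr1:164458356-164458605, part of which lies in the long noncoding RNA gene Gm32391, and that of Atp1b3 is chr9:96364432-96364681, both of 250 bases.
Fxyd5: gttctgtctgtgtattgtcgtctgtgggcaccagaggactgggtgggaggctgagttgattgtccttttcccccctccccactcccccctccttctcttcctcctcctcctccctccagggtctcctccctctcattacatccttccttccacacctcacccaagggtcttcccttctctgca
Atp1b1: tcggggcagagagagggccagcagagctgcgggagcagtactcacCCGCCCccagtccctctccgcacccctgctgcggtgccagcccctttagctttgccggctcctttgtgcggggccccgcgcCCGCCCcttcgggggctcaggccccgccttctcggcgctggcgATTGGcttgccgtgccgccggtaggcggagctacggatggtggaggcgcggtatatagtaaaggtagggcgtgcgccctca
Atp1b3: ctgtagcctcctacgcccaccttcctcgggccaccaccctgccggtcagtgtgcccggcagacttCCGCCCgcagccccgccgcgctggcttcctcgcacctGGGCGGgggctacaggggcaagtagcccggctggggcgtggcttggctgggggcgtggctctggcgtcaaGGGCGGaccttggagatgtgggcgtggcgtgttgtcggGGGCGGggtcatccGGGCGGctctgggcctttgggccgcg
The Fxyd5 stretch held 1 CpG and 0 of the 3 boxes. Atp1b1 and Atp1b3 held 24 CpGs each, with 2 GC boxes and 1 CCAAT box in Atp1b1 and 5 GC boxes in Atp1b3. Among 32851 promoters, 32.7% held a GC box, 12.4% a TATA box and 33.8% a CCAAT box within 250 bases, and 30.4%, 9.04% and 27.7% held them within 183 bases. A match here is a description of letters. The arrays measure transcripts and not the start that was used.

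Atp1b1 encodes the β1 subunit, the most widely used partner of the α subunit. Its brightest probe set (1418453_a_at) read 12886, 16660.2 and 21223 on the Slc26a4+/+ arrays, while the Slc26a4-/- arrays gave 14847, 13521 and 12646. Slc26a4+/+ replicates 2 and 3 were the highest, and replicate 1 lay among the Slc26a4-/- arrays, so the genotypes overlapped. The mean ± SD was 16923 ± 4175 in Slc26a4+/+ and 13671 ± 1108 in Slc26a4-/- (n = 3 arrays each), and the log2 fold change was -0.28 (SE 0.19, 95% interval -0.71 to 0.14, limma, adjusted p = 0.63). Of the other probe sets of Atp1b1, 1423890_x_at, 1439036_a_at and 1451152_a_at had log2 fold changes of -0.22, -0.30 and -0.35 (limma, adjusted p = 0.602, 0.58 and 0.459). The suffix _a_at marks a probe set shared by transcripts of 1 gene and _x_at one with probes that can bind other transcripts. The arrays of 1423890_x_at did not overlap, with 13948 to 17049 in Slc26a4+/+ and 13149.6 to 13876 in Slc26a4-/-. The probe set 1455949_at was near background, at 147 to 377 in Slc26a4+/+ and 180.2 to 352 in Slc26a4-/-, and gave a log2 fold change of 0.01 (SE 0.38).

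Atp1b2 encodes the β2 subunit, first described as an adhesion molecule of glia, and β2 is a β subunit of marginal cells. Its probe set 1435148_at read 11746, 15629 and 19492 in Slc26a4+/+, and the Slc26a4-/- arrays gave 11544, 12369.7 and 10993. As for Atp1b1, Slc26a4+/+ replicates 2 and 3 were high and replicate 1 lay within the range of the Slc26a4-/- arrays. The log2 fold change was -0.40 (SE 0.19, 95% interval -0.82 to 0.02, limma, adjusted p = 0.458). The dimmer probe set 1422009_at read 487, 412 and 574 in Slc26a4+/+, against 332, 338 and 324 in Slc26a4-/-, and its genotypes did not overlap. Its mean ± SD was 491 ± 81.4 in Slc26a4+/+ and 331 ± 7.06 in Slc26a4-/- (n = 3), with a log2 fold change of -0.55 (SE 0.20, 95% interval -0.99 to -0.11, limma, adjusted p = 0.278). Both probe sets of the gene were lower in the mean, and neither passed the test.

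Atp1b3, which encodes the β3 subunit, read 10656, 11268 and 9995 in Slc26a4+/+ on its 1 probe set, against 11697, 11051 and 11261 in Slc26a4-/-. The genotypes overlapped, and all 6 arrays lay between 9995 and 11697. The log2 fold change was 0.09 (SE 0.13, limma, adjusted p = 0.842), with a 95% interval of -0.20 to 0.38. Over the 8 β subunit probe sets 0 were higher and 0 lower by the adjusted test, and without adjustment 1 was lower at p under 0.05, the dim one of Atp1b2, and 0 were higher.

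Fxyd5 encodes dysadherin, an FXYD protein with a long extracellular part, also known for its effect on cell adhesion. It was the member that rose. Its 1 probe set (1418296_at) read 255, 535 and 326 on the Slc26a4+/+ arrays, whereas the Slc26a4-/- arrays gave 1026, 1052 and 939. Every Slc26a4-/- array was above every Slc26a4+/+ array. The mean ± SD was 372 ± 145 in Slc26a4+/+ and 1006 ± 59 in Slc26a4-/- (n = 3 arrays each), a ratio of the means of 2.7, and the log2 fold change was 1.50 (SE 0.25, 95% interval 0.94 to 2.07, limma, adjusted p = 0.0176). In Slc26a4+/+ the signals lay close to background, which was 199.7, 269 and 319 on replicates 1, 2 and 3, and all 3 were above it.

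The difference of Fxyd5 was positive under all 18 alternatives, with a log2 fold change of 0.54 to 1.80, and passed the test under 12 of them. Its genotypes did not overlap, so leaving out an array or changing the pseudocount could not turn its sign, and no conclusion is drawn from that. The 12 include the replicate block, which rests on the arbitrary pairing. Without Slc26a4-/- replicate 1, 2 or 3 the log2 fold change was 1.49, 1.47 and 1.55 and the adjusted p from limma was 0.0954, 0.0951 and 0.0848. Without any 1 of the Slc26a4+/+ arrays it passed, at a log2 fold change of 1.27 to 1.80. With log2 Xist added to the fit the log2 fold change was 0.54 (limma, adjusted p = 0.773), and the Xist signals of the genotypes did not overlap. The other alternatives without a call were the fit without a trend in eBayes (limma, adjusted p = 0.19) and the methods' paired t-test (adjusted p = 0.537).

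**Figure D2:**
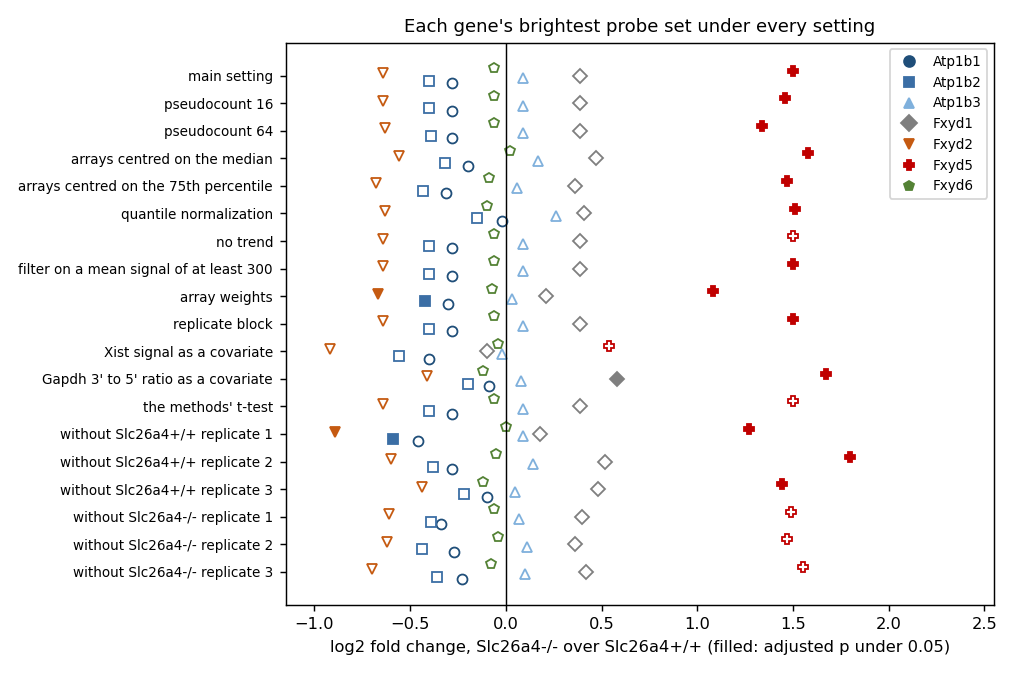
Log2 fold change, Slc26a4-/- over Slc26a4+/+, of the brightest probe set of each of the 7 genes (symbols) under each setting (rows), filled where the adjusted p was under 0.05. Fxyd5 stays to the right at 0.54 to 1.80, and Fxyd2 and Atp1b2 are filled on the left with array weights and without Slc26a4+/+ replicate 1.

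Fxyd2 encodes the γ subunit, the FXYD protein best known from the kidney tubule. The 3 of its 4 probe sets that were above background were all lower in the mean in Slc26a4-/-. Probe set 1456601_x_at, the brightest, read 2885, 4279 and 5411 in Slc26a4+/+, against 2472, 2515 and 2819.7 in Slc26a4-/-. Its genotypes did not overlap, though Slc26a4+/+ replicate 1 came close to the Slc26a4-/- arrays. The mean ± SD was 4191 ± 1265 in Slc26a4+/+ and 2602 ± 189.6 in Slc26a4-/- (n = 3), and the log2 fold change was -0.64 (SE 0.21, 95% interval -1.11 to -0.17, limma, adjusted p = 0.227). Probe set 1419378_a_at read 3264, 3713 and 4278 in Slc26a4+/+, against 2653, 2385 and 2663 in Slc26a4-/-, again without overlap, and a log2 fold change of -0.54 (SE 0.14, limma, adjusted p = 0.119). Probe set 1419379_x_at read 2351, 3318 and 3636 in Slc26a4+/+, against 2309.6, 2186 and 2483 in Slc26a4-/-, with replicate 1 inside the range of the Slc26a4-/- arrays, and a log2 fold change of -0.39 (SE 0.17, limma, adjusted p = 0.417). These probe sets are of 1 gene and measure the same RNA, so they are not separate evidence. The fourth, 1449883_at, lay at 4 to 8.9 in Slc26a4+/+ and 9.4 to 13.9 in Slc26a4-/-, below background on all arrays, so that its order carries no level.

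Whether Fxyd2 and 2 of the 8 β subunit probe sets passed the test depended on the setting. Without Slc26a4+/+ replicate 1, 5 member probe sets were lower by limma at an adjusted p under 0.05, where 1.48% of all probe sets were lower. They were the 3 of Fxyd2, with log2 fold changes of -0.89, -0.64 and -0.58 (adjusted p = 0.0143, 0.0297 and 0.0365), 1435148_at of Atp1b2 at -0.59 (adjusted p = 0.047) and 1451152_a_at of Atp1b1 at -0.51 (adjusted p = 0.0414). With array weights, which let limma count arrays that deviate less for more, 5 were lower too, where 3.80% of all probe sets were. The 5 probe sets were the same in both settings, and Slc26a4+/+ replicate 1 had the lowest ratio of the Gapdh control probe sets. On the Slc26a4+/+ arrays, 7 of the 13 member probe sets that were above background everywhere were ordered like that ratio, 4 of them β subunit and 3 Fxyd2 probe sets, against 29.6% of the 14199 such probe sets of the array. The 7 belong to Atp1b1, Atp1b2 and Fxyd2 alone, and probe sets of 1 gene are not separate evidence. The mean signal (662, 694 and 719.6) and the background (199.7, 269 and 319) of these arrays rose in the same order as the Gapdh ratio. With the log2 of the ratio as a covariate the log2 fold change of the brightest probe set was -0.09 for Atp1b1, -0.20 for Atp1b2 and -0.41 for Fxyd2, while 1422009_at of Atp1b2 had -0.52 and 1419378_a_at of Fxyd2 had -0.44. The part of RNA quality in these differences was not tested.

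Fxyd1 encodes phospholemman, the FXYD protein that protein kinases phosphorylate in heart and skeletal muscle. Its probe set read 2778, 4455 and 4181 in Slc26a4+/+, against 4828, 5128 and 4732 in Slc26a4-/-. All Slc26a4-/- arrays were above all Slc26a4+/+ arrays, and Slc26a4+/+ replicate 1 was the lowest by far. The mean ± SD was 3805 ± 899 in Slc26a4+/+ and 4896 ± 207 in Slc26a4-/- (n = 3), with a log2 fold change of 0.39 (SE 0.18, 95% interval -0.02 to 0.80, limma, adjusted p = 0.446). With the Gapdh ratio as a covariate the log2 fold change was 0.58 (limma, adjusted p = 0.0291), and 2 member probe sets, Fxyd1 and Fxyd5, were higher, where 1.85% of all probe sets were. With log2 Xist added to the fit it was -0.10 (limma, adjusted p = 0.967). Of 6 markers of skeletal and heart muscle, 5 were below background on all arrays.

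Fxyd6 encodes phosphohippolin, an FXYD protein found in brain and inner ear. Its probe set read 1533, 1424 and 1292 in Slc26a4+/+, against 1366, 1317 and 1391 in Slc26a4-/-. The genotypes overlapped, and the 6 arrays lay within 1292 to 1533. The log2 fold change was -0.06 (SE 0.14, 95% interval -0.36 to 0.25, limma, adjusted p = 0.913), and it turned to 0.02 when each array was centred on its median.

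**Figure D3:**
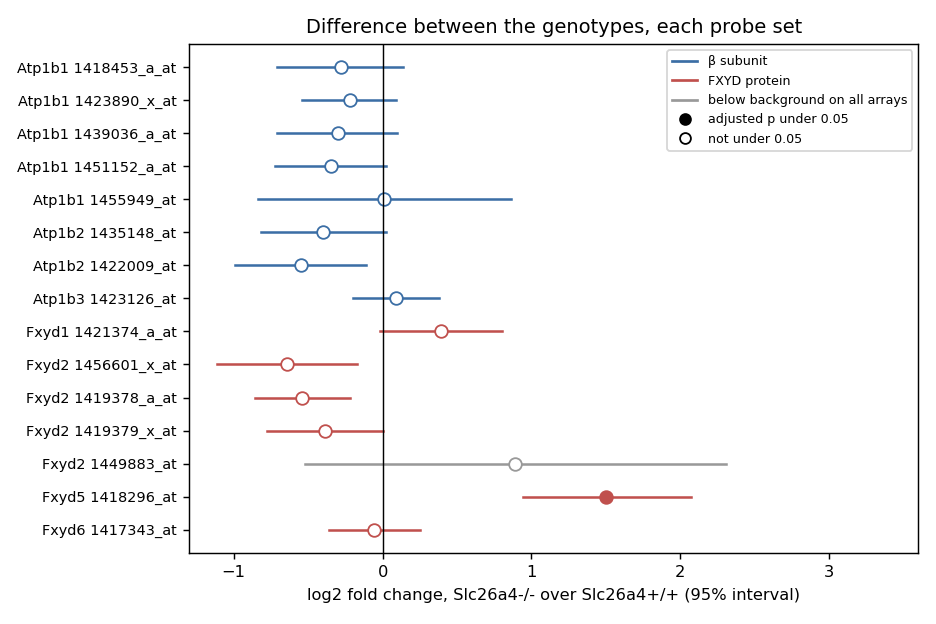
Log2 fold change, Slc26a4-/- over Slc26a4+/+, of each of the 15 probe sets (rows), with lines for the 95% interval and filled points for an adjusted p under 0.05. The point of Fxyd5 at 1.50 is the filled one, those of Fxyd2 above background lie at -0.39 to -0.64, and those of Atp1b3 and Fxyd6 lie near 0.

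The members also differed in how their arrays spread. In all 13 member probe sets that were above background on every array, the coefficient of variation was larger among the Slc26a4+/+ arrays than among the Slc26a4-/- arrays. Its median was 21.6% in Slc26a4+/+ and 5.87% in Slc26a4-/-. Among all 14199 probe sets above background on every array, the medians were 18.3% and 8.44%, and 80.8% were more variable in Slc26a4+/+. The ratio of the Gapdh control probe sets and the Xist signal were more variable in Slc26a4+/+ as well, and their part in the spread was not tested.

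The study's methods read a change from the ratio of mean signals of each probe set, taken as an average for a gene, when it exceeds 1.3-fold. By this ratio Fxyd5 was 2.7-fold up and Atp1b2 was 1.41-fold down, and the other 5 members did not pass. Of all genes, 37.7% passed in either direction on the ratio alone. Fxyd1 was 1.29-fold up, Atp1b1 1.19-fold down and Atp1b3 1.07-fold up. Fxyd2 came to 1.04-fold down over its 4 probe sets and to 1.46-fold down over the 3 above background, so the probe set without a level above background decided its side of the rule.

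Over the 6 arrays the log2 signals of Atp1b1, Atp1b2 and Fxyd2 ran together, with Pearson correlations of 0.95 between Atp1b1 and Atp1b2, 0.95 between Atp1b2 and Fxyd2 and 0.88 between Atp1b1 and Fxyd2. Fxyd1 and Fxyd5 had 0.86, and Fxyd2 and Fxyd5 -0.60. These values describe 6 arrays that share the genotype, the sex and the RNA quality of their pools. Among 9090 genes with a mean signal of at least 300, the signals most like Fxyd5 were those of Gpx1, a glutathione peroxidase, Prpf4, a splicing factor, and Igsf8, an immunoglobulin-domain protein, with correlations of 0.997, 0.996 and 0.995, and 1.51% of the genes reached 0.95. Those most like Atp1b2 were Clns1a, Tgfbrap1 and Trim56 (1.000, 0.999 and 0.999), with 3.21% of the genes at 0.95 or more, and those most like Fxyd2 were Mpp3, Lynx1 and Rabgef1 (0.998, 0.997 and 0.995), with 2.37%. Atp1b1 was closest to Mpi, Gramd1b and Kmt2d (0.994, 0.992 and 0.992), and Atp1b3 to Pcbp2, Serhl and Angel1 (0.998, 0.988 and 0.986). Fxyd1 was closest to Tuft1, L3mbtl2 and Tecr (0.992, 0.991 and 0.989), and Fxyd6 to Fbxo33, Ppp1r2 and Ints13 (0.989, 0.982 and 0.978).

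Other genes of the pump family and of Na+ and K+ transport were read from lists, with the brightest probe set standing for a gene. By that reading 1.88% of all 18193 genes were higher and 0.803% were lower. Among 10 further β, FXYD and related pump genes 1 rose and 0 fell, and 6 were below background on all arrays, among them Fxyd4, Fxyd7 and Atp1b4. The one that rose was Nkain1, which encodes a protein that binds the β1 subunit. It read 757, 1086 and 958 in Slc26a4+/+, against 2013, 2044 and 2281 in Slc26a4-/-, with a log2 fold change of 1.19 (SE 0.16, limma, adjusted p = 0.00668). Fxyd3, a further FXYD protein, read 6000, 8532 and 10070.5 in Slc26a4+/+, against 4316, 5245 and 4772 in Slc26a4-/-, without overlap (log2 fold change -0.75, SE 0.19, limma, adjusted p = 0.105). As for Fxyd2, Slc26a4+/+ replicate 1 was the lowest of its genotype, and without that array the log2 fold change was -0.96 (adjusted p = 0.0088).

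Of 20 genes of pump trafficking, anchoring and regulation 1 rose and 1 fell. Cav1, the coat protein of caveolae, in which part of the pump resides, rose from 2058 ± 42.9 to 6622 ± 309.6 (SD, n = 3 arrays each), which is a log2 fold change of 1.69 (SE 0.12, limma, adjusted p = 0.000171). Add2, the β subunit of the cytoskeletal protein adducin, went from 1531 ± 154 to 889 ± 143 (log2 fold change -0.79, limma, adjusted p = 0.0467). Of 6 genes of K+ secretion by marginal cells 0 rose and 3 fell, and in all 6 the Slc26a4-/- arrays lay below the Slc26a4+/+ arrays. They did so in 1770 of all 18193 genes. Kcne1, the β subunit of the apical K+ channel, had a log2 fold change of -1.27, Kcnma1, a Ca-activated K+ channel, of -1.44 and Kcnk1, a two-pore channel, of -0.61 (limma, adjusted p = 0.00237, 0.0155 and 0.0465). Of 13 genes of other Na+ entry and exit 1 rose and 0 fell. Scnn1b, a subunit of the epithelial Na+ channel, was below background on all Slc26a4+/+ arrays (126 ± 19.4), and the Slc26a4-/- arrays (315 ± 37.5) were at least 1.22-fold higher (limma, adjusted p = 0.0394). When a gene's probe sets were averaged instead, Nkain1, Add2 and Kcnma1 did not pass, and Kcnq1 and Bsnd of the K+ secretion genes passed as lower (limma, log2 fold change -0.51 and -1.22, adjusted p = 0.0453 and 0.0488).

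**Figure D4:**
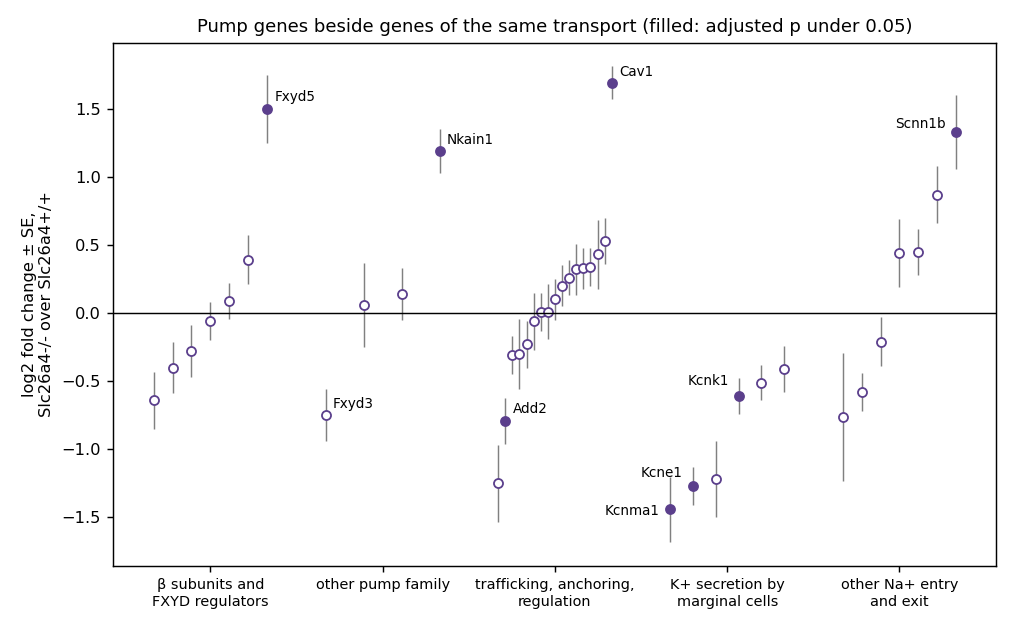
Log2 fold change ± SE, Slc26a4-/- over Slc26a4+/+, of the 7 genes and of 4 lists of related genes (columns, ordered by value within a column), without genes below background on all arrays and filled where the adjusted p was under 0.05. The 7 genes run from -0.64 for Fxyd2 to 1.50 for Fxyd5, and the genes of K+ secretion lie below 0.

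Markers of other cell types moved with the genotype beside these results. Of 10 macrophage markers 7 rose and 0 fell, and their summed signal was 7804 to 10418 in Slc26a4+/+ and 39445 to 41164 in Slc26a4-/-. Itgam was below background on all arrays, and Cd68 on all Slc26a4+/+ arrays. Of 10 markers of spiral ligament fibrocytes, the neighbouring connective tissue, 5 rose and 0 fell, with sums of 19474 to 23019 in Slc26a4+/+ and 27929 to 29762 in Slc26a4-/-, and Chad was below background on all Slc26a4+/+ arrays. Of 7 marginal cell markers 0 rose and 2 fell, and their sum was 49206 to 57035 in Slc26a4+/+ and 33115 to 35618 in Slc26a4-/-. This list shares Kcne1, Kcnq1, Slc12a2 and Bsnd with the genes of K+ secretion. The sum of a list follows its brightest probe sets. In the marginal cell list the brightest was that of Slc12a2, with means of 23676 in Slc26a4+/+ and 17553 in Slc26a4-/-. It did not pass the test (limma, adjusted p = 0.365). Of 7 intermediate cell markers 2 rose and 0 fell, of 6 basal cell markers 0 rose and 0 fell, and of 4 spindle and root cell markers 1 rose and 0 fell. The spindle and root cell list holds Slc26a4, the targeted gene itself. P2rx2, which rose in that list, was below background on all Slc26a4+/+ arrays, and Dpp10 was below it on all arrays. The part of these cell types in the signals of Fxyd5, Fxyd1, Fxyd2 and the β subunits was not tested. The endothelium and pericyte list had 8 measured genes, of which 0 rose and 0 fell by the adjusted test. By limma 4 had an unadjusted p under 0.05, all of them higher. Tie1, which is among these 4, was below background on all arrays. So was Pecam1, which was lower in the mean (log2 fold change -0.62). Among all 18193 genes 1542 were higher at that unadjusted p. Of 5 neuron and glia markers 4 were below background on all arrays, and of 2 red blood cell markers 1 was.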

How the data were processed

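RNA of stria vascularis was measured on 6 arrays, 3 per genotype. The intensity values that the authors deposited, 1 for each probe set on an array, are signals on a linear scale as scaled by GCOS, which the submitters' notes on processing name. Its version and scaling target were not found in the sources used here. Arrays were grouped by the sample titles, and genotype, age and pooling came from the study's methods. Of 45101 probe sets 64 controls were left out. Gene symbols came from the platform annotation, in which 34945 of 45037 probe sets had 1 symbol, 932 several and 9160 none. Signals under 1 (172 values) were raised to 1, and limma was run on log2 signals (limma 3.58.1 in R 4.3.3, lmFit, eBayes with a trend), with Benjamini-Hochberg adjustment over all probe sets and a threshold of 0.05. Intervals are 95% intervals of that fit. The number of arrays limits the precision. Scripts were tested on simulated data. Alternatives changed the pseudocount, the scaling, the trend, a filter on a mean signal of 300, array weights, covariates, a replicate block, the methods' paired t-test and the arrays included. The members, the gene lists and the tests were chosen with earlier results of these data known. The rule for naming took all member probe sets, genes of the lists that passed or had the smallest p, Slc26a4 and the 3 genes most correlated with each member. It was not followed for the marker lists, where many genes that passed were counted but not named. Fxyd3, Fxyd4, Fxyd7, Atp1b4, Itgam, Tie1, Pecam1, Dpp10, Kcnq1, Bsnd, Slc12a2, Xist and the genes next to members on the chromosome lie outside this rule and were named after their values were seen. Protein sequences were not used here.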

Additional observations from a re-analysis of the deposited data

How the results depend on the processing

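The Fxyd5 call was lost without the trend in eBayes (log2 fold change 1.50, limma, adjusted p = 0.19), with the Xist covariate (0.54, adjusted p = 0.773) and by the methods' t-test (1.50, adjusted p = 0.537), where 0 member probe sets were higher. With 1 array left out its log2 fold change was 1.27 to 1.80 (limma, adjusted p = 0.00761 to 0.0954), and 0 to 1 member probe sets were higher and 0 to 5 lower. The Gapdh covariate gave 2 higher, and array weights gave 5 lower. The replicate numbers did not pair the arrays (correlations of 0.0939, 0.0267 and 0.0287 between arrays of the same number), and a replicate block gave Fxyd5 1.50 (limma, adjusted p = 0.0121), 1 higher and 0 lower. Over all probe sets 535 were higher and 243 lower, against 359 and 89 with arrays centred on the median, 93 and 21 without the trend, 2372 and 1712 with array weights, 27 and 0 with the Xist covariate and 0 and 0 by the methods' t-test. Some differences changed sign. The dim 1455949_at of Atp1b1 went to -0.00 with a pseudocount of 64, -0.02 with arrays centred on the 75th percentile, -0.10 with array weights, -0.37 with the Xist covariate, and -0.36 and -0.24 without Slc26a4+/+ replicate 1 and Slc26a4-/- replicate 2. With 1 array left out this probe set ranged from -0.36 to 0.32. Fxyd6 went to 0.02 centred on the median and to -0.12 to 0.00 with 1 array left out, the latter without Slc26a4+/+ replicate 1. The probe set 1423890_x_at of Atp1b1 went to 0.01 with quantile normalization, and Atp1b3 to -0.02 with the Xist covariate. Fxyd1, which was not near 0 in the main fit, went from 0.39 to -0.10 with the Xist covariate. Of the listed genes of the pump family and of ion transport 3 were higher and 4 lower. This became 1 lower centred on the median, 1 higher and 0 lower without the trend, 8 lower with the filter, 8 higher and 10 lower with array weights, 7 lower with the Gapdh covariate, 0 and 0 with the Xist covariate and the t-test, and 1 to 3 higher and 1 to 7 lower with 1 array left out. With a gene's probe sets averaged 2 were higher and 4 lower. The causes were not tested. By the ratio rule Fxyd2 went from 0.96 to 0.685 with the probe sets above background.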

Other observations

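Several FXYD genes lie side by side in the mouse genome. In the order of the GRCm38.p6 annotation, chromosome 7 holds Fxyd5, the noncoding genes Gm38984 and Mir7050, Fxyd7, Fxyd1, Lgi4 and Fxyd3 in 1 stretch of 7 genes. Their log2 fold changes, Slc26a4-/- over Slc26a4+/+, were 1.50 for Fxyd5, 0.39 for Fxyd1, -0.17 for Lgi4, a secreted protein of glia, and -0.75 for Fxyd3, while Fxyd7 was below background on all arrays. Of these Fxyd5 passed the test (limma, adjusted p = 0.0176). Fxyd6 and Fxyd2 are direct neighbours on chromosome 9 and had log2 fold changes of -0.06 and -0.64 (limma, adjusted p = 0.913 and 0.227). Gm38984 overlaps Fxyd5 in the annotation, and whether the Fxyd5 probe set lies in the shared stretch was not analysed here.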
